A study of Mus musculus with 4 samples.

Results

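Zeb1 and Zeb2 encode a pair of related zinc finger and homeodomain repressors that stand, with the Snail family, at the top of the epithelial-mesenchymal transition (EMT). They bind E-box sequences, recruit corepressors such as CtBP, and switch off genes of epithelial junctions and polarity. In epithelial cells their own messages are held down by the miR-200 microRNAs, whose genes they repress in turn. The 2 genes were taken by name out of 21887 protein-coding genes, and all Slug and Snail peaks with a midpoint inside their RefSeq spans or within 100 kb of either end were collected. This gave 14 of 41612 Slug peaks and 12 of 28375 Snail peaks.

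The peaks come from chromatin immunoprecipitation followed by sequencing (ChIP-seq), which maps where a protein sits on DNA. The labels describe pBl.1G, used for Slug, as epithelial with high expression of Slug, and pBl.3G, used for Snail, as mesenchymal with high expression of Snail. Both are lines of MMTV-PyMT breast cancer, a mouse model in which a mammary tumour virus promoter drives the polyoma middle T antigen, and neither received a treatment. Each factor has 1 ChIP library, so no value has a replicate check and no test across samples was possible. The Slug antibody was a rabbit monoclonal, and that of the Snail library is labelled as raised to Snail and Slug together. Factor, antibody and line changed together and cannot be told apart. The peak lists hold no expression values, so the labelled cell states could not be checked against their markers, and whether Zeb1 or Zeb2 was transcribed is not known from them. They hold no read counts either, so the depth behind each peak is unknown. The score is the authors' own for each peak, on a scale that the files do not state, and ranks peaks only within 1 list. The median score was 81.1 for Slug and 151 for Snail, and the median width 206 bp and 722 bp.

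Zeb1 and Zeb2 shared an outline. Within each span the highest-scoring Slug peak lay deep inside the gene, whereas the highest-scoring Snail peak lay on its start side, which in Zeb1 is the low-coordinate end and in Zeb2 the high-coordinate end. For Snail this rests on 2 peaks inside Zeb1 and 3 inside Zeb2, and how many other genes show this outline was not counted. Each gene had 4 Slug peaks inside its span, none of them within 1 kb of an end. Of all protein-coding genes, 32.9% had an internal Slug peak, meaning one over 1 kb from both ends, and 23.7% an internal Snail peak. Among genes of like span, a group defined below, such peaks were far more common. For Slug the shares were 92.5% of genes of like span to Zeb1 and 86.6% of those to Zeb2. For Snail they were 59.2% and 59.7%. Having an internal Slug peak therefore does not set Zeb1 or Zeb2 apart from genes of their length. Zeb1 (chromosome 18, 5591327 to 5775468) had 7 Slug and 4 Snail peaks in and around it, and Zeb2 (chromosome 2, 44983512 to 45117442) had 7 and 8. Inside the genes this came to 2.17 Slug peaks per 100 kb in Zeb1 and 2.99 in Zeb2, against 1.5 in the flanks of either gene. For Snail it came to 1.09 per 100 kb inside Zeb1 and 1.00 in its flanks, and to 2.24 inside Zeb2 and 2.50 in its flanks. These densities rest on few peaks and were not set against those of other genes. With a score of at least 100, 1 internal Slug peak remained in Zeb1 and 2 in Zeb2.

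**Figure D1:**
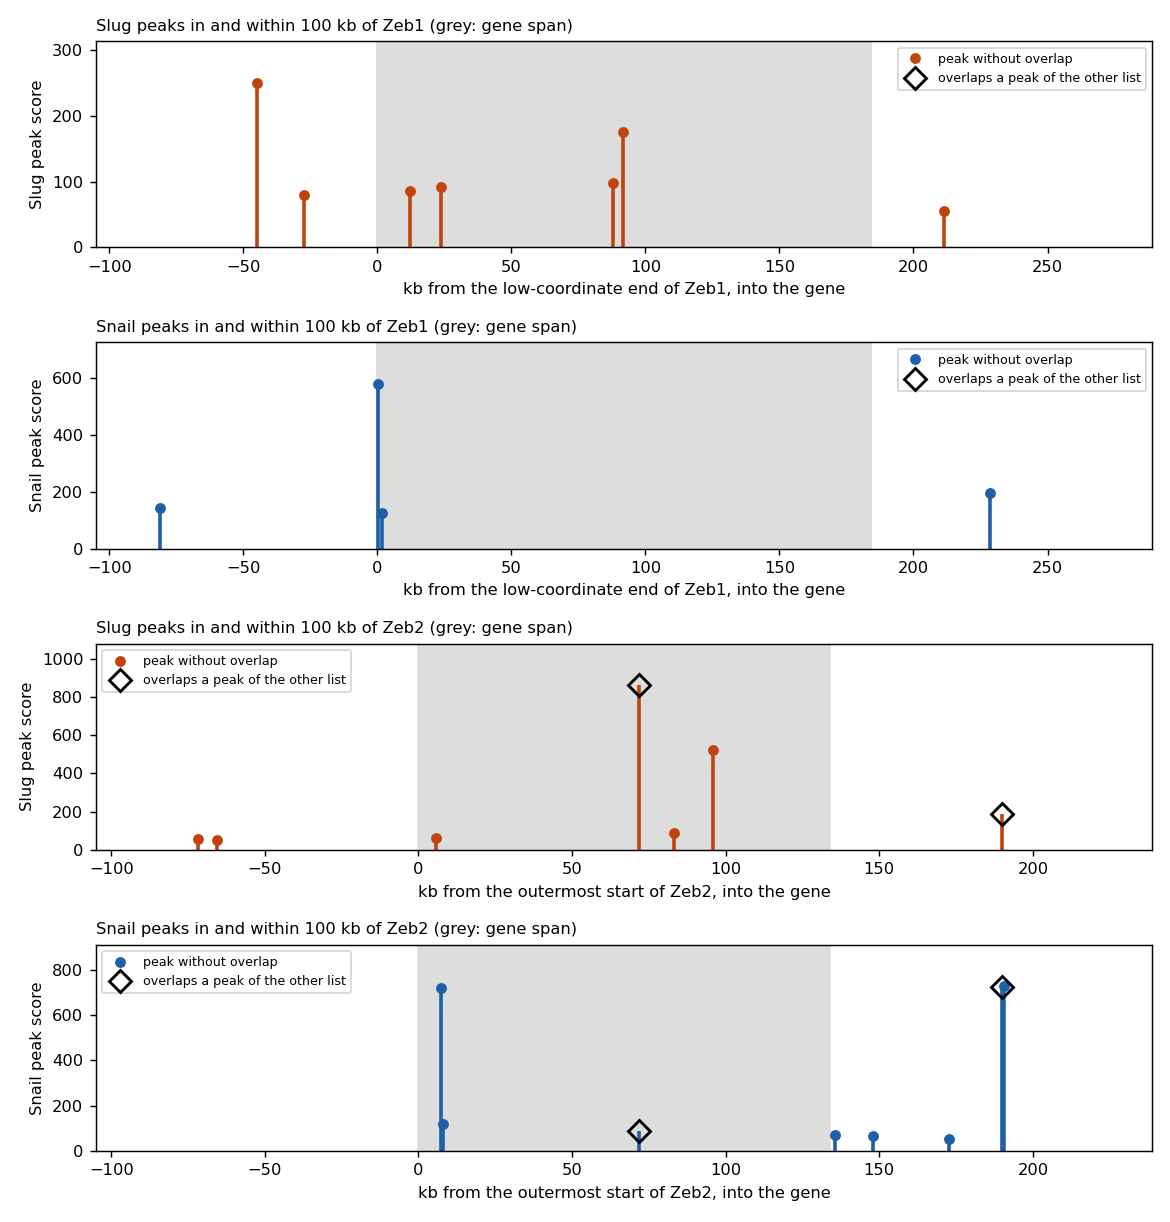
Score of each Slug or Snail peak (y axis, the authors' score, a separate scale in each panel) against its distance in kb along the gene (x axis, Zeb1 from its low-coordinate end, Zeb2 from its outermost start), with 100 kb on each side and the gene span in grey. Circles are peaks without overlap, and open black diamonds are peaks that overlap one of the other list. The Snail peak of Zeb1 with a score of 581 stands at the gene's edge, and the Slug peaks of Zeb2 with scores of 864 and 524 stand deep inside.

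The sequences shown here are the stretches ahead of RefSeq starts that the peaks of the Zeb2 region either cover or leave free. RefSeq gives Zeb2, on the minus strand, 4 starts, of which the outermost lies at 45117442, a close pair 4.16 and 4.19 kb further in, and the innermost at 45110277, 7.17 kb in. A Snail peak covered the innermost, and no peak of either list touched the others. The neighbour Gtdc1, which encodes a protein with a glycosyltransferase-like domain, has starts at 44927236 and 44927717 in the 100 kb flank. They are called inner and outer here. Its 1 further start, at 44861622, lies outside the flank and was not covered by a peak. Snail peaks covered both 44927236 and 44927717, and the Slug peak there covered the latter and met the 250 bases ahead of the former. Each stretch holds the 250 bases before the start on the strand of the gene, 5′ to 3′, from RefSeq on GRCm38.p6, the assembly of mm10. Capitals mark an E-box of the form CANNTG, the general motif that Snail and ZEB zinc fingers read in its version CAGGTG.
Zeb2 innermost start, chr2:45110278-45110527, minus strand: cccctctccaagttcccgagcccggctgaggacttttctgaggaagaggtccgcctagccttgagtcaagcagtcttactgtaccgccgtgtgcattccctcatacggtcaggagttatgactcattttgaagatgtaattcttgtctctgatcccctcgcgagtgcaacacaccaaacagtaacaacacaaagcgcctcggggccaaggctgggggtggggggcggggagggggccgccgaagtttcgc
Zeb2 outermost start, chr2:45117443-45117692, minus strand: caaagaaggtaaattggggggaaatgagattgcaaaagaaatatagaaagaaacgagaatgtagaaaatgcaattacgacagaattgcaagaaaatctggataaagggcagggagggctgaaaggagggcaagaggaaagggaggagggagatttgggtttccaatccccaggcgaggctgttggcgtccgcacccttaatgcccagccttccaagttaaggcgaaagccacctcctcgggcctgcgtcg
Gtdc1 inner start, chr2:44927237-44927486, minus strand: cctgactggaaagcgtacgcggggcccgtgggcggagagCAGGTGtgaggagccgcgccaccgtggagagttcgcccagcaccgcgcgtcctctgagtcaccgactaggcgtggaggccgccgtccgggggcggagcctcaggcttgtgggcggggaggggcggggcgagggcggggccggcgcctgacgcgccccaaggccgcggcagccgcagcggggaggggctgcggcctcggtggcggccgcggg
Gtdc1 outer start, chr2:44927718-44927967, minus strand: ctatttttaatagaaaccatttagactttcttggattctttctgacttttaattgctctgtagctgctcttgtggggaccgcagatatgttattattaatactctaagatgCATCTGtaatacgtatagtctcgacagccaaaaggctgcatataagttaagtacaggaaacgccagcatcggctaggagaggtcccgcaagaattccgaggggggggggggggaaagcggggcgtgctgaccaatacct
The stretches were searched on both strands for CAGGTG, which the opposite strand spells as CACCTG. They were also searched for CANNTG, a pattern that is the same on both strands. Each CAGGTG is thus counted among the CANNTG matches too. Neither Zeb2 stretch holds either motif, nor do those of the other Zeb2 starts. The stretch of the inner Gtdc1 start holds a single CAGGTG, at 44927442 to 44927447, inside a Slug and a Snail peak. That of the outer start, which the Slug peak covered, holds no CAGGTG and a single CATCTG, at 44927851 to 44927856, inside the Snail but not the Slug peak. Among 32817 such stretches of RefSeq starts in the table used here, 17.2% hold CAGGTG and 66.2% hold CANNTG. In those whose start window (250 bases before to 50 after the start) met a Snail peak the CAGGTG share was 14.8%, and in those that met a Slug peak 33.5%. The G and C content was 57.6% for the innermost and 49.6% for the outermost Zeb2 stretch and 78.4% and 45.2% for the inner and outer ones of Gtdc1, beside a median of 52.4%. The RefSeq starts used here include none for Zeb1, so its starts and sequences were not analysed.

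At the gene ends, Snail and not Slug was found at Zeb1. A Snail peak of 1311 bp (5591089 to 5592399, score 581) covered the low-coordinate end of Zeb1, with 238 bp outside and 1073 bp inside the gene. Of the Snail list, 24.1% scored at least as high. The whole peak lies inside Gm10125, a long noncoding RNA gene also named Zeb1os that shares 1111 bp with Zeb1, and stops 38 bp short of that gene's high-coordinate end. It can therefore not be given to 1 of the 2 genes. After a gap of 523 bp a further Snail peak (5592923 to 5593499, score 126) lay in Zeb1, centred 1.88 kb from the end. The nearest Slug peak began 9.90 kb beyond it. Snail peaks so placed are common: 48.7% of all protein-coding genes had one within 1 kb, and 49.8% of the 693 genes of like span, meaning 80 to 125% of the span of Zeb1. In 24.7% of the latter the score was at least that of Zeb1. For Slug the shares were 12.1% of all protein-coding genes and 13.4% of those of like span, so most genes, like Zeb1, had none.

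Zeb2 had no peak of either list within 1 kb of the ends of its span, where 55.1% of the 985 genes of like span had a Snail and 13.1% a Slug peak. Measured from start sites, the picture differed. The Snail peak at 45109806 to 45110710 (905 bp, score 721) was centred 19 bp from the innermost start, and 19.2% of the Snail list scored as high. A weaker Snail peak (45109027 to 45109650, score 119) followed 155 bp further into the gene, centred 939 bp from the same start. The strong peak and the weaker one thus repeat the order seen at Zeb1. Of the 32817 RefSeq start windows used here, which include none of Zeb1, 36.5% met a Snail peak and 3.21% a Slug peak. For Zeb2 it was 1 of 4 for Snail and 0 of 4 for Slug. Among 1287 protein-coding genes with a start more than 2 kb inside the outermost, 16.2% (95% Wilson interval 14.3 to 18.3) had, like Zeb2, a Snail peak within 1 kb of an inner start and none within 1 kb of the outermost.

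Zeb2os (45111138 to 45114087), which overlaps the close pair of Zeb2 starts, is a long noncoding RNA gene also known as a natural antisense transcript of Zeb2. Its low-coordinate end lies 427 bp from the edge of the Snail peak with a score of 721. That peak is centred within 1 kb of this end, so by the rule used here it also lies at an end of Zeb2os. A Slug peak of 153 bp (45111783 to 45111935, score 60.4) lay inside Zeb2os, 1.07 kb from that Snail peak and 1.39 kb from the nearest Zeb2 start. It was the only Slug peak within 10 kb of an end of Zeb2, and 72.2% of the Slug list scored at least as high. Peaks from sequencing do not tell strands apart, so peaks in the shared stretches belong to either gene of a pair.

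**Figure D2:**
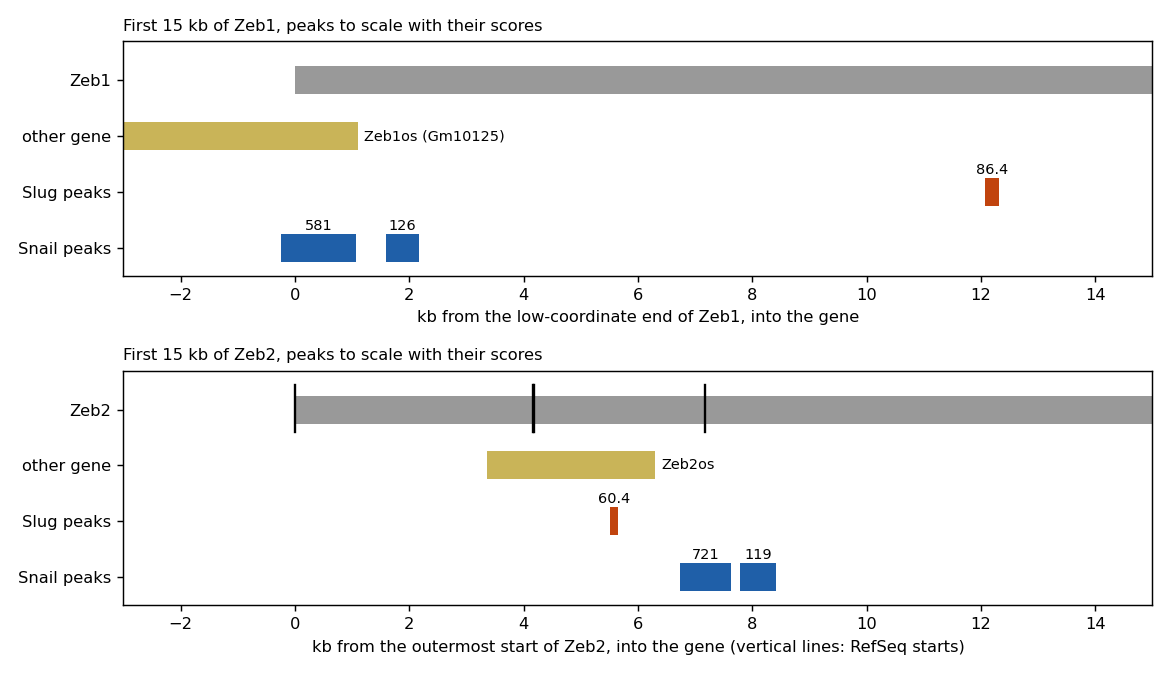
Peaks over the start side of Zeb1 and Zeb2, drawn to scale (x axis, kb into the gene), with the authors' scores above each box. Vertical lines on the bar of Zeb2 are RefSeq starts. The Snail peak with a score of 581 covers the edge of Zeb1 where it overlaps Zeb1os, and that with a score of 721 covers the innermost Zeb2 start, beyond Zeb2os.

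Inside Zeb1 the Slug peaks formed a loose pair near the start side and a tighter pair in the middle of the gene. They were centred 12.2 kb (score 86.4), 23.9 kb (score 91.3), 88.1 kb (score 98.4) and 91.5 kb (score 176) from the low-coordinate end. The middle pair is 3.22 kb apart, and its second member, at 5682709 to 5682956 (248 bp), has the highest score inside the gene. No Snail peak was near them, with gaps of 9.90 to 89.2 kb to the closest. All 4 scored above the Slug median, yet 20.1% of the list scored at least as high as the strongest. Among genes of like span 43.3% had at least as many internal Slug peaks (median 3, quartiles 2 and 5), and in 51.8% an internal Slug peak scored at least as high. Zeb1 was thus near the middle of its background for internal Slug peaks by number and by score. Of genes of like span, 59.2% had at least 1 internal Snail peak, the count of Zeb1.

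Zeb2 held the highest-scoring Slug sites of the pair. The peak at 45045518 to 45045912 (395 bp) scored 864, a value reached by 0.771% of the Slug list, and the one at 45021432 to 45021711 (280 bp) scored 524, reached by 2.34%. A weaker peak at 45034162 to 45034303 (score 89.5) lay between them. By number the internal Slug peaks of Zeb2 were not unusual, as 30.1% of genes of like span had at least 4. By score they were rarer: in 1.42% of the 985 genes the best internal Slug peak reached 864, and in 0.406% the next best reached 524. The peak with a score of 524 lies 1.39 kb from Mir5129, a microRNA gene inside Zeb2, and 23.9 kb from the nearest Snail peak. For internal Snail peaks, 17.6% of genes of like span had at least 3, and in 6.80% the best reached 721, the score of the peak at the innermost start. That peak and the one with a score of 119 lay within 1 kb of this start, and count as internal only by the span ends. Peaks within 1 kb of a span end were left out for all genes, so these shares do not compare like places. Of the whole Snail list 19.2% scored at least 721.

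**Figure D3:**
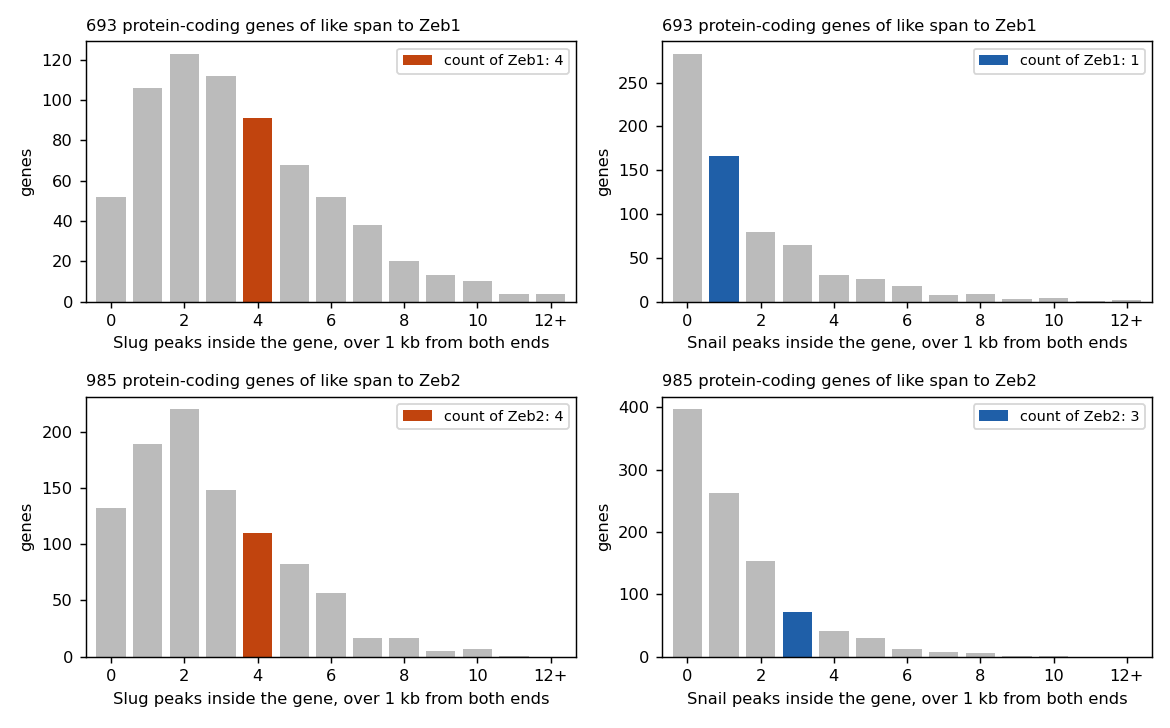
Number of protein-coding genes (y axis) by their count of internal Slug or Snail peaks (x axis), among genes with a span of 80 to 125% that of Zeb1 (upper) or Zeb2 (lower). The coloured bar is the count of the named gene; the count of 4 internal Slug peaks was reached or passed by 43.3% of genes in the upper and 30.1% in the lower panel.

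Slug and Snail peaks overlapped at 2 sites near Zeb2 and at none near Zeb1. Of the 14 Slug peaks 2 (14.3%) overlapped a Snail peak by at least 1 bp, and of the 12 Snail peaks 2 (16.7%) overlapped a Slug peak, close to the shares of the whole lists, 12.1% and 16.6%. The first site is the Slug peak inside Zeb2 with a score of 864. It shared 324 bp with a Snail peak (45045589 to 45045999, 411 bp, score 88.5), which is 82.0% of the Slug and 78.8% of the Snail peak. The 2 lists rank this site very differently, since 68.1% of Snail peaks scored at least 88.5. A shared Slug peak inside the gene was found in 10.2% of all protein-coding genes, in 23.2% of genes of like span to Zeb2 and in 26.4% of those of like span to Zeb1. The second site lies 55.9 kb beyond the low-coordinate end of Zeb2, at the start of Gtdc1. There the Slug peak (44927404 to 44927799, 396 bp, score 187) lay wholly within a Snail peak (44927311 to 44927903, 593 bp, score 724). A further Snail peak (44926077 to 44927276, 1200 bp, score 729) adjoined it at 34 bp. These were the highest-scoring Snail peaks of the Zeb2 region, and they lie at the neighbour. The Snail peak at the innermost Zeb2 start scored nearly the same (721).

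**Figure D4:**
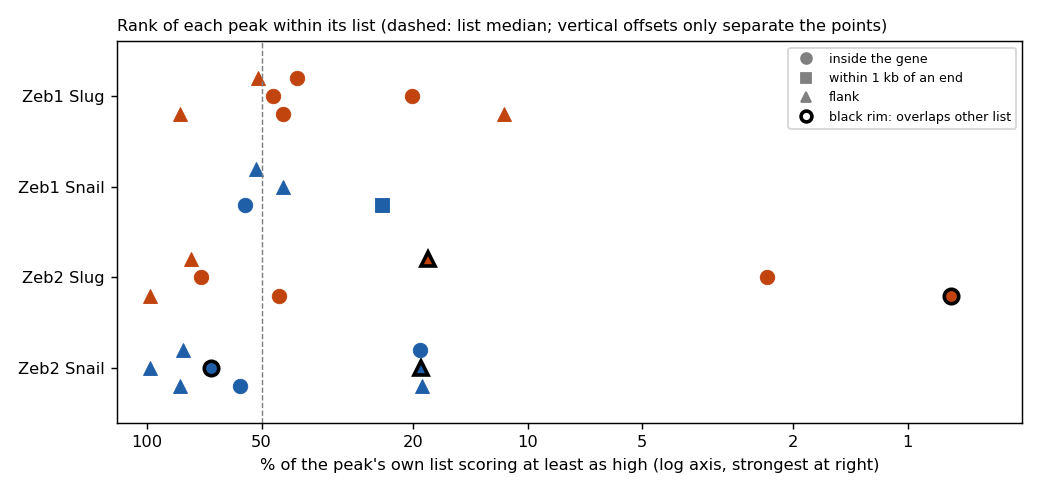
Rank of each peak as the percent of its own list that scores at least as high (x axis, log scale, strongest at right) for the 7 Slug and 4 Snail peaks of Zeb1 and the 7 Slug and 8 Snail peaks of Zeb2. Symbols give the place of the peak and black rims mark overlap with the other list; only the Slug peaks of Zeb2 with scores of 524 and 864 fall in the top 5% of their list.

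The flanks held 3 of the 7 Slug peaks of each gene, and for Snail 2 of 4 peaks at Zeb1 and 5 of 8 at Zeb2. In the low-coordinate flank of Zeb1 2 Slug peaks lay inside Zeb1os. The one at 5546231 to 5546408 (178 bp, score 251), 45.0 kb from Zeb1, had the highest Slug score of the whole Zeb1 region, and the other scored 79.3 at 27.6 kb. A Snail peak with a score of 142 lay in the same noncoding gene, 81.2 kb from Zeb1. Beyond the other end were 1 Slug peak (score 56.0, at 27.3 kb) and 1 Snail peak (5819576 to 5820253, 678 bp, score 195, at 44.4 kb). Gm52340, a further noncoding gene in that low-coordinate flank, had no peak. At Zeb2, 3 Snail peaks with scores of 51.4, 66.8 and 68.6 were spread between Gtdc1 and the low-coordinate end, the last centred 1.75 kb from it. On the start side 2 Slug peaks with scores of 50.6 and 58.3 lay 65.7 and 71.7 kb out, past the noncoding gene Gm28643, which had no peak, and no Snail peak lay within 100 kb there. The weaker of them is close to the lowest accepted score of 50. The limit of 100 kb fell in an empty stretch, as the next peaks of any list were centred 125 kb out (Slug at Zeb2, score 149) and, at Zeb1, 177 kb out (Snail, score 153).

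The number of peaks was ordinary for genes of this length. Of genes of like span with the same flanks, 53.1% had at least 7 Slug peaks and 56.0% at least 4 Snail peaks, as Zeb1 had. For Zeb2, 49.4% had at least 7 Slug peaks and 26.4% at least 8 Snail peaks. The arrangement of Zeb1, with Snail but not Slug at an end (1 kb) and Slug inside, was found in 37.8% of genes of like span to Zeb1 and in 14.9% of all protein-coding genes. By the 4 counts of Slug and Snail peaks at ends and inside, 11 of 693 genes of like span matched Zeb1 exactly, and the closest in span were Taf4b, Cdk5rap2 and Khdrbs3. For Zeb2 6 of 985 matched, among them Senp7, Celsr1 and Evi5. Each rests on 1 library per factor.

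The genes around Zeb1 and Zeb2 in the EMT circuit were taken from 4 fixed lists, with peaks counted within 10 kb of a gene end. In this window 47.6% of all protein-coding genes had a Slug and 64.1% a Snail peak. Zeb1 had 2 Snail and 0 Slug peaks there, and Zeb2 3 Snail and 1 Slug. Of 18 ZEB corepressors and cofactors, 18 had a Snail peak and 7 a Slug peak, with a median of 1.5 Snail and 0 Slug peaks. At 1 kb the Snail count was still 18 and the Slug count 3, in a window where 48.7% and 12.1% of all protein-coding genes had one. The highest Snail scores within 10 kb were at Rcor1 (1873), the CoREST scaffold, and near Chd4 (1559), a remodeller of the NuRD complex. The latter peak lay wholly outside Chd4, centred 1.19 kb from its end. The highest Slug scores were 250 at the acetyltransferase gene Ep300 and 138 at Smad3, centred 5.01 and 1.81 kb from an end. Of 12 junction and polarity genes known as ZEB targets, 9 had a Slug and 10 a Snail peak, and at 1 kb 3 and 5. The highest Slug scores were at Epcam (351) and Llgl2 (246), centred 1.23 and 0.404 kb from an end. For Snail the highest were 1042 near the desmosome gene Dsp, centred 6.36 kb outside it, and 830 at Pkp2, 0.066 kb from an end. Of 14 other EMT factors, 10 had a Slug and 12 a Snail peak, and at 1 kb 7 and 10. Slug was led by Snai3 (309) and Sox4 (167), centred 0.087 and 0.282 kb from an end. Snail was led by Tcf4 (1822), centred 0.924 kb from an end, and Foxc2 (1471), centred 7.72 kb outside the gene.

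Of 11 genes that oppose the ZEB factors in epithelium, 9 were near Slug and 5 near Snail peaks at 10 kb, with medians of 1 and 0. At 1 kb the counts were 5 for Slug and 0 for Snail, beside 12.1% and 48.7% of all protein-coding genes. The highest Snail scores were near Esrp1 (1777), an epithelial splicing regulator, and Ovol1 (984), with peaks centred 9.5 and 7.53 kb outside the gene. The highest Slug score belonged to the cluster of Mir200b, Mir200a and Mir429, whose members share 1 Slug peak (chromosome 4, 156059731 to 156060082, score 426) centred 4.16 kb ahead of Mir200b, with no Snail peak within 10 kb. Mir200c and Mir141 share 1 Slug peak (chromosome 6, 124718667 to 124719025, score 238), centred 0.456 kb ahead of Mir200c, and a Snail peak (score 974) centred 6.01 kb from Mir200c. The 5 microRNAs thus rest on 2 Slug peaks, and microRNA genes are far shorter than the protein-coding genes of the background. Their mature sequences, from RefSeq, are shown since they are the known repressors of the Zeb1 and Zeb2 messages, with the seed (bases 2 to 8) in capitals. They fall into 2 seed groups, each with a member in either cluster.
miR-200b-3p: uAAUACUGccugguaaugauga
miR-200c-3p: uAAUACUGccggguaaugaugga
miR-429-3p: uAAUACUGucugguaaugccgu
miR-200a-3p: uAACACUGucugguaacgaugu
miR-141-3p: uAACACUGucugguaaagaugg
The first 3 share the seed AAUACUG and the other two the seed AACACUG. Mir205, another microRNA known to target both ZEB messages, had no peak of either list within 10 kb.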

How the data were processed

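The 2 files used are peak lists, 1 per ChIP library, with a score per peak deposited by the authors. The submitters' processing notes name Bowtie, MACS 1.4.2 and mm10, with settings and control not given in the sources used here. Per the labels' protocols, chromatin was cross-linked (1% formaldehyde, 10 min) and sheared to fragments of 200 to 500 bp. The 2 input libraries were not used here. Genes, starts and sequences came from RefSeq tables of GRCm38.p6. Peak starts were made 1-based, peaks were placed by their midpoints, and overlap needed 1 bp. Wilson intervals are at 95% and cover counting error only. Peaks at ends, shared peaks and the 2 highest-scoring per gene region and list are given with position, width and score, neighbours are named whatever they show, and each pathway list names the 2 genes with the highest-scoring peak per factor. The most similar genes are the 3 of like span with the smallest summed difference over 4 counts, ties by span. The members and the 4 lists (55 genes, all matched) were chosen with earlier results of these data known. Alternatives were a minimum score of 100, other flanks, end windows and overlaps, placing by any base and, chosen after seeing the data, RefSeq starts in place of span ends. The counting was tested on simulated data. Python 3.11.15, numpy 2.4.6, pandas 2.3.3, scipy 1.17.1 and matplotlib 3.10.9 were used.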

Additional observations from a re-analysis of the deposited data

How the results depend on the processing

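Of 68 alternative values 46 stayed within 1.5 times the count given, and the other 22 follow. With a score of at least 100, the region of Zeb1 kept 2 Slug peaks, 1 of them internal, and that of Zeb2 kept 3 Slug peaks, 2 of them internal, and 4 Snail peaks; the overlap inside Zeb2 was lost and 1 overlapping Slug peak, at Gtdc1, remained. With flanks of 50 kb Zeb2 had 4 Slug peaks. With flanks of 10 kb Zeb1 had 4 Slug and 2 Snail peaks and Zeb2 had 4 of each. With end windows of 2 kb Zeb1 had 2 Snail peaks at its end and 0 internal, and Zeb2 had 1 Snail peak at an end. With end windows of 10 kb the Snail counts were 2 at the end and 0 internal for Zeb1, and 3 at the ends and 1 internal for Zeb2, which then also had 1 Slug peak at an end. Placed by any base, 2 Snail peaks were internal to Zeb1. Measured from RefSeq starts, Zeb2 had 2 Snail peaks within 1 kb and still no Slug peak. Within the gene body alone, Zeb2 had 1 overlapping Slug peak. A reciprocal overlap of 50% and a gap of up to 500 bp left the 2 overlapping Slug peaks of Zeb2 and the 0 of Zeb1 as they were. The absence of Slug peaks within 1 kb of an end of Zeb1 held in each window up to 10 kb. No paired analysis was possible because each factor has 1 library and the results come from no test.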
